A study of Homo sapiens with 6 samples.

Results

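The regions described here are the stretches of open chromatin in and around the major histone gene cluster and the extended major histocompatibility complex (MHC) on the short arm of human chromosome 6. Overlapping intervals of 6 deposited peak lists were merged, and a merged region was taken when its hg19 midpoint lay between fixed positions just before the histone genes and just after class II. This gave 264 of 40110 merged regions on chromosomes 1 to 22 and X. The first began at chr6:25866322 and the last ended at chr6:33400163, 0.017 kb inside the upper limit by its midpoint, and the next region lay 22.3 kb beyond that limit. They were divided by position into 140 regions among histone and transfer RNA genes (below 28.9 Mb), 65 in the class I part (to 31.5 Mb), 32 in class III (to 32.3 Mb) and 27 in class II. The rule for taking a region refers to its position and to no measured value, although the stretch itself was picked with earlier results of these data known.

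The lists came from ATAC-seq, in which the Tn5 transposase cuts and tags accessible DNA, of 6 established human leukaemia lines of the T lineage (T-cell acute lymphoblastic, T-ALL): TALL-1, MOLT-4, CCRF-CEM, HBP-ALL, KOPT-K1 and DND-41. All lines were grown in RPMI-1640 with fetal serum and antibiotics, and the labels name no treatment, genotype, clone or control. Each line was represented by 1 library. Lines are therefore compared with no replicate error and no p-value, and a property of a line cannot be told apart from a property of its preparation.

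The histone cluster holds most genes for the replication-dependent histones, which form and link nucleosomes and are transcribed chiefly in S phase. The neighbouring class I genes encode the heavy chains that present peptides of the cell interior, and class II genes encode chains that present engulfed material. Class II chains are made by B cells, dendritic cells and, in humans, activated T cells under the coactivator CIITA, while resting T cells make little. The class III part between them is dense with housekeeping genes and also holds tumour necrosis factor, complement and heat shock genes.

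As a check of the lines' identity, peaks were sought within 1 kb of the starts of 6 T-cell genes, 3 B-cell genes and the monocyte gene CD14. Each of the 6 T-cell genes had a peak in at least 1 line. CD3E and LCK had one in all 6 lines, and the lines held from 3 (CCRF-CEM and MOLT-4) to 5 (DND-41 and TALL-1) of the 6. No line had a peak at CD79A, MS4A1 or CD14, and CD79B had a low one in HBP-ALL alone. CD2 had a peak in HBP-ALL alone and CD7 lacked one in CCRF-CEM and HBP-ALL.

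Promoter sequences of 6 genes are given first, to set starts with a peak in every line beside starts with a peak in some lines or in none. Each is the 250 bases before the gene's start, 5′ to 3′ on the gene's own strand, from RefSeq on build GRCh38.p14. Those positions do not correspond to the hg19 positions of the peaks. Capitals mark 4 motifs searched on both strands: the CCAAT box (CCAAT), the octamer bound by Oct factors (ATTTGCAT), the TATA box (TATAAA) and the core of an interferon-type repeat (AAANNGAAA). Adjacent or overlapping matches appear as 1 longer run of capitals. A histone H2B gene (H2BC11, chr6:27132796-27133045, minus strand) had a peak in all 6 lines, another (H2BC3, chr6:26043714-26043963, minus strand) in 3, and a histone H3 gene (H3C3, chr6:26045134-26045383, plus strand) in 6 lines at very unequal heights. The peptide transporter gene TAP1 (chr6:32853705-32853954, minus strand) had a peak in every line, the class II chain gene HLA-DQA1 (chr6:32637156-32637405, plus strand) in none, and the class II loading gene HLA-DMB (chr6:32941029-32941278, minus strand) in 1.
H2BC11: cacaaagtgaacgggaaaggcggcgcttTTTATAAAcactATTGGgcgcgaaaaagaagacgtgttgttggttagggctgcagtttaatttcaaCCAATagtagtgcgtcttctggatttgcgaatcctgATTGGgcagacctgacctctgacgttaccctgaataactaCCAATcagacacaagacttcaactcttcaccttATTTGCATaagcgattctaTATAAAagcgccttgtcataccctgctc
H2BC3: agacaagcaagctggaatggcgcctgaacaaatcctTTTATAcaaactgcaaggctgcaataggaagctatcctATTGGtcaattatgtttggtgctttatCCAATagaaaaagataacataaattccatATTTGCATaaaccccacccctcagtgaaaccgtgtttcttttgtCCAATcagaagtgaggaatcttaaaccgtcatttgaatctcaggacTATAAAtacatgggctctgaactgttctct
H3C3: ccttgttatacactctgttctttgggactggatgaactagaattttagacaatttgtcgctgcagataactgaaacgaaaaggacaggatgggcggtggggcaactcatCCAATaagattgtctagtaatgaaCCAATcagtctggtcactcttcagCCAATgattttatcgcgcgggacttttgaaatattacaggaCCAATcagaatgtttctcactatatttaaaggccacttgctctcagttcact
TAP1: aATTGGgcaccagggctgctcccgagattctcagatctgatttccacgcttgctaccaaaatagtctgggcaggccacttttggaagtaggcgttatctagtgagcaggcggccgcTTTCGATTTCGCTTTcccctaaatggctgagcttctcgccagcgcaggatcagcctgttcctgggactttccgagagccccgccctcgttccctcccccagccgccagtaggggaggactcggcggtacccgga
HLA-DQA1: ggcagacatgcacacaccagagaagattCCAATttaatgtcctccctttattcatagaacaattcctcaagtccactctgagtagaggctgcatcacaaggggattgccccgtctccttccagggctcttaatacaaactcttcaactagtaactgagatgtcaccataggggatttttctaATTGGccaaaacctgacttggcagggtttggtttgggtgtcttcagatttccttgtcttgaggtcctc
HLA-DMB: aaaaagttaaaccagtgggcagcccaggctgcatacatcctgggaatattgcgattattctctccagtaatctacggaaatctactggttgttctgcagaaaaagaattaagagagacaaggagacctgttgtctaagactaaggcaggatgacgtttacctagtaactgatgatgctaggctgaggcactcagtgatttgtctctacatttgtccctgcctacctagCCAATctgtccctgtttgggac

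The octamer lay 47 bases before the start of H2BC11 and 120 bases before that of H2BC3, and both promoters also held 3 or more CCAAT boxes. H3C3 had 4 CCAAT boxes and no octamer in this window. A promoter entry matched 148 of the 172 genes whose starts were used. Among them, 11 of 14 H2B promoters and 8 of 10 H2A promoters held an octamer, against 1 of 8 for H3, 0 of 9 for H4 and 0 of 6 for H1. Paired H2A and H2B genes start close together, so 1 match may be counted for both families. The octamer was found in 1.63% of all 35116 promoters of the same length. CCAAT boxes were in all 14 H2B, 10 H2A, 8 H3 and 6 H1 promoters but in 3 of 9 H4 promoters, against 32% of all promoters. Outside the histone genes they were in 7 of 8 class II chain, 4 of 4 class II loading, 3 of 4 class I heavy chain and 2 of 5 class I processing promoters. TAP1 held a pair of overlapping interferon-type repeats, a motif found in 9.20% of all promoters. It was in 3 of 5 class I processing promoters, 5 of 9 for H4, 3 of 8 for H3, 1 of 4 for class I heavy chains and 0 of 8 for class II chains. These matches describe letters in a window and no binding was measured. H2BC11 and H2BC3 share the motifs but not the number of lines with a peak.

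Regions of the window were shared between lines more often than regions at large. A peak in every line was present in 97 of the 264 regions, or 36.7% (exact 95% interval 30.9 to 42.9%), against 22.6% of all merged regions. A peak in 1 line only was seen in 51 regions, or 19.3% (14.7 to 24.6%), against 43.2% of all regions. The rest of chromosome 6 had 19.3% of its 2329 regions in every line and 45.9% in 1 line only. Chromosome 19, another gene-dense stretch, had 38.0% of its 1204 regions in every line and 20.9% in 1 line. The window's values lay within 2 percentage points of those of chromosome 19, so the high sharing was not particular to it. Intervals cover counting error only, since neighbouring regions are not independent.

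**Figure D1:**
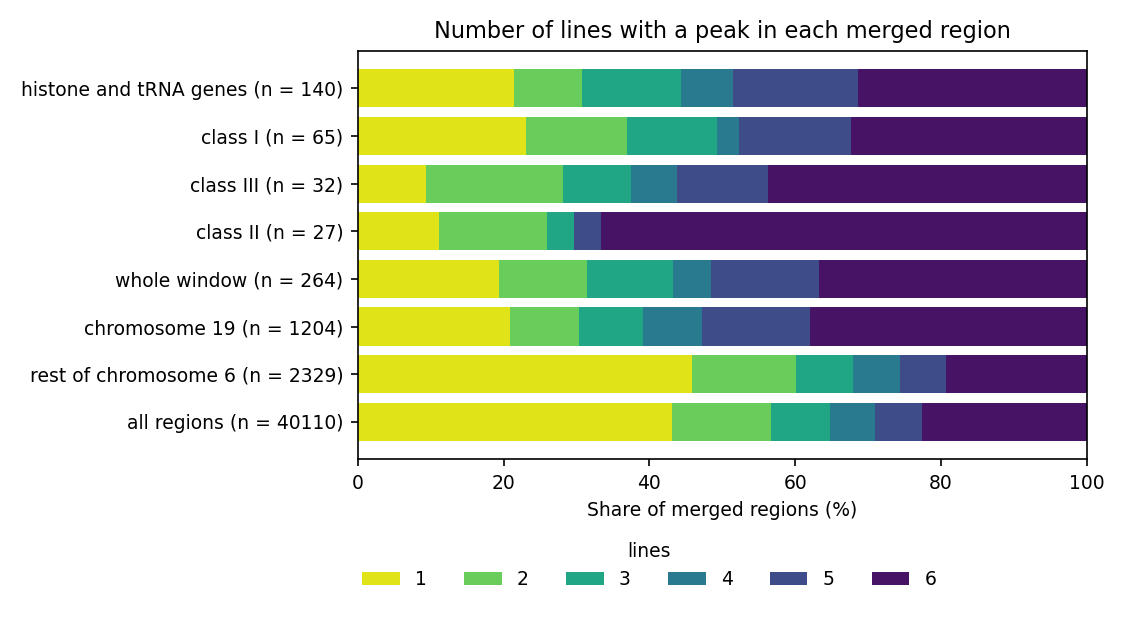
Share of merged regions (horizontal axis, percent) with a peak in 1 to 6 lines, for the 4 blocks, the whole window, chromosome 19, the rest of chromosome 6 and all regions. The darkest bar, a peak in all 6 lines, takes 66.7% of the class II regions, 36.7% of the window and 22.6% of all regions.

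The blocks differed in sharing. In class II 18 of 27 regions had a peak in every line (66.7%, 46.0 to 83.5%), and in class III 14 of 32 (43.8%, 26.4 to 62.3%). Class I had 21 of 65 (32.3%, 21.2 to 45.1%) and the histone block 44 of 140 (31.4%, 23.9 to 39.8%). The interval of class II lay above those of the histone block and class I without overlap, and overlapped that of class III. Regions of 1 line only made up 21.4% of the histone block, 23.1% of class I, 9.38% of class III and 11.1% of class II. Without TALL-1 the last 2 were 25% and 22.2%, and without HBP-ALL class III was at 15.6%. The density of regions ran from 24.5 per Mb in class II and 25 in class I to 40.0 in class III and 43.8 in the histone block. Class II thus held few regions, and most of those were common to all lines.

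Sharing went with gene starts. Starts of 169 genes in the window were listed from general knowledge of hg19, to about 100 bp, and kept where their spacing matched RefSeq. A listed start lay within 1 kb of 128 regions, and 70 of these (54.7%, 45.7 to 63.5%) had a peak in every line. Among the other 136 regions 27 did (19.9%, 13.5 to 27.6%). Line-only regions were 13 of the 128 and 38 of the 136. The median width of the merged regions was 701 bp at listed starts and 536 bp elsewhere, and the median pileup 26.2 against 15.5 tags. Merging widens a region as more lines join it, so merged width is not independent of sharing. In the window the median merged width was 783 bp for regions of every line and 293 bp for regions of 1 line. The pileup is how many tags overlap the summit, recovered from the deposited fold and −log10 p. The list is not complete, and transfer RNA genes were not located, so regions counted as elsewhere include unlisted starts. Width and height also decide whether a peak is called, and their part in the sharing was not tested.

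Of 52 listed histone genes, 31 had a peak at the start in every line, 19 in some lines and 2 in none. Of all 169 listed starts in the window 85 (50.3%) had one in every line, 51 in some and 33 in none, against 59.6% in every line for the histone genes. Neighbouring starts under about 2 kb apart can share 1 peak, as the paired H2A and H2B genes do, so these counts are not of separate peaks. By family, a peak in every line was found at 9 of 11 H2A genes, 9 of 14 H2B, 5 of 10 H3, 6 of 11 H4 and 2 of 6 H1. The 2 without a peak in any line were the linker histone genes H1-1 and H1-6, the latter a testis form. All 5 genes of the middle of 3 sub-clusters had a peak in every line, against 18 of 31 in the first and 8 of 16 in the last. CCRF-CEM held a peak at 36 of the 52 starts, DND-41 and TALL-1 at 43, MOLT-4 at 44, and HBP-ALL and KOPT-K1 at 46. Over all 169 starts CCRF-CEM was also lowest, at 100, and HBP-ALL highest, at 121.

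By median pileup, the tallest region of the block that every line held lay between H2BC11 and H2AC11, a divergent pair whose H2B promoter is printed above (chr6:27099503-27101308). Its pileup was 71 tags in TALL-1, 65 in MOLT-4, 60 in DND-41, 57 in KOPT-K1, 56 in HBP-ALL and 41 in CCRF-CEM. Raw pileups carry each library's depth, so lines are compared on a relative scale. This is the log2 pileup less its mean over the lines, less the line's own median over 9045 regions held by all. The relative pileup of the pair was highest in MOLT-4 (0.24) and lowest in CCRF-CEM (−0.28), with the other lines between −0.06 and 0.08. The same region held the widest single interval of the window, 1806 bp with 3 summits in KOPT-K1. The next by median was the H2BC13 and H2AC13 pair (chr6:27775369-27776462), with 34 tags in CCRF-CEM and 42 to 55 in the other lines.

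H3C3 had the widest range of relative pileup among histone starts held by every line (chr6:26045366-26046096), and was chosen after its values were seen. Its pileup was 46 tags in TALL-1, 42 in KOPT-K1, 31 in DND-41, 16 in MOLT-4, 14 in HBP-ALL and 8 in CCRF-CEM. DND-41, KOPT-K1 and TALL-1 were high, with relative pileups of 0.40, 0.96 and 0.86, and the other lines low, from −1.24 in CCRF-CEM to −0.38 in MOLT-4. The start of the neighbouring H2BC3 had a peak in the same 3 lines alone (chr6:26043586-26044284), with 32, 42 and 42 tags. Within 2.5 kb of that start all 6 lines had a peak, since that window takes in the peak at H3C3. At H3C7 and H2BC9 there were 2 regions, of which one (chr6:26251704-26252079) was held by DND-41, KOPT-K1 and TALL-1 alone and the other by every line but CCRF-CEM. These lines alone held 4 of the 31 window regions found in exactly 3 lines, all in the histone block, against 4.79% of such regions genome-wide. Another set, CCRF-CEM with HBP-ALL and KOPT-K1, also held 4 of the 31.

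Other histone starts had a peak in some lines. H4C6 had a peak in HBP-ALL alone (12 tags), H2BC6 in KOPT-K1 (19) and TALL-1 (14), and the pair H2AC14 and H2BC14 in HBP-ALL (29) and KOPT-K1 (39). H1-5 had a peak in HBP-ALL (28), KOPT-K1 (34) and MOLT-4 (34). At H1-4, an abundant linker histone, no peak of CCRF-CEM or TALL-1 came within 1 kb of the start. The region on the H1-4 start (chr6:26156488-26156793) was held by DND-41, HBP-ALL and MOLT-4 alone, with 26, 27 and 27 tags. The next region, at the start of H2BC5 (chr6:26157566-26158827), was held by all 6 lines. It had 62 tags in KOPT-K1, 51 in TALL-1, 48 in MOLT-4, 47 in DND-41, 36 in HBP-ALL and 27 in CCRF-CEM. Its KOPT-K1 and DND-41 peaks came within 1 kb of the H1-4 start and were counted there as well. H3C12 was absent from HBP-ALL and TALL-1 and stood at 32 to 48 tags in the other lines. The near-identical sequences of histone genes mean that reads could be placed at another copy or dropped, and how the authors treated such reads is not given in the sources used here.

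**Figure D2:**
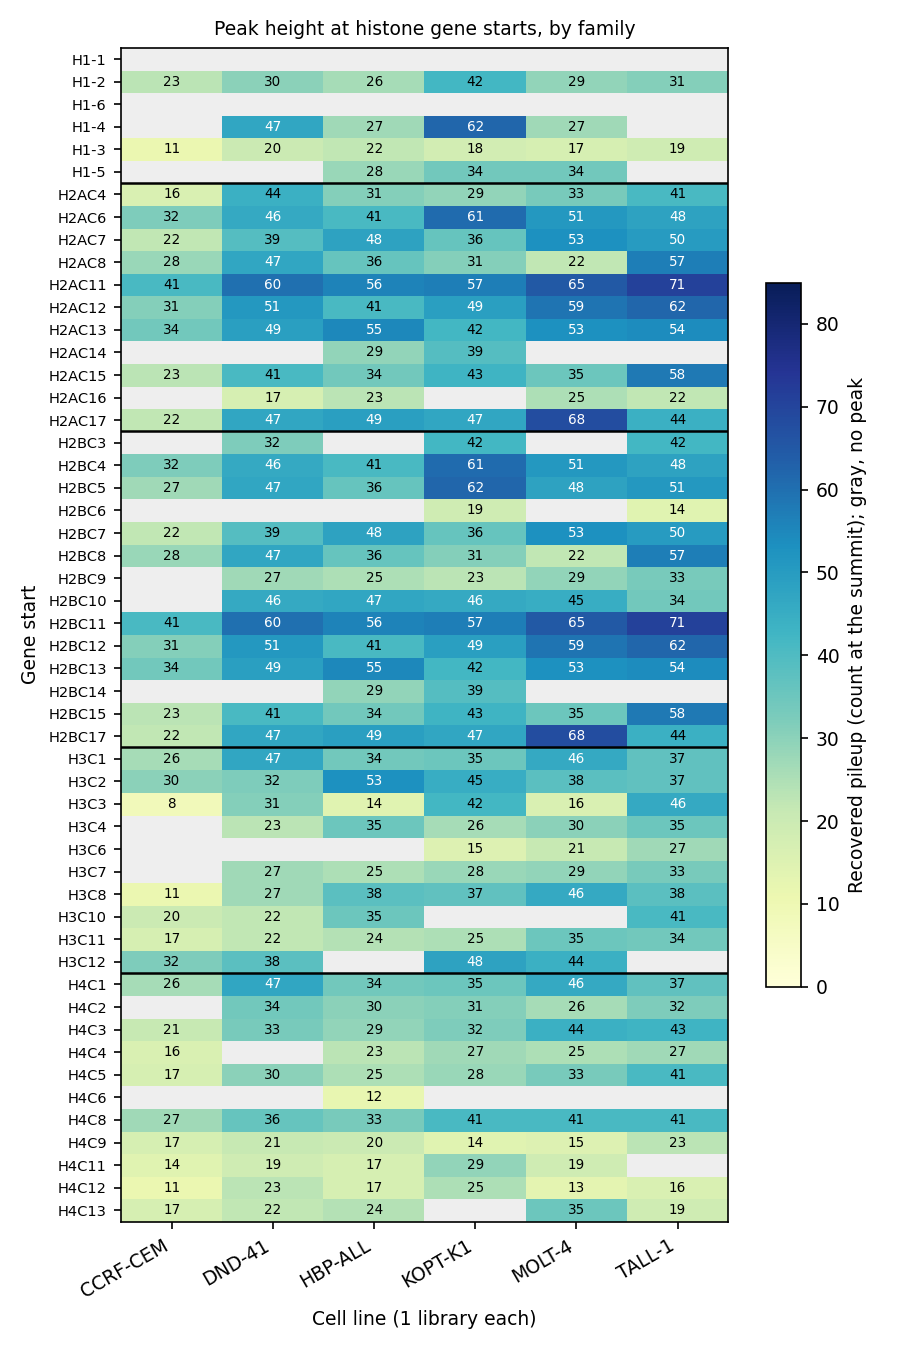
Recovered pileup (colour and number, tags at the summit) of the strongest peak within 1 kb of each of 52 histone gene starts (rows, by family) in the 6 lines (columns, 1 library each). Gray marks no peak; the H2BC11 and H2AC11 pair runs from 41 to 71 tags, H1-1 and H1-6 are gray throughout, and H3C3 ranges from 8 to 46.

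Beside the histone genes the block holds butyrophilins, membrane proteins of which some activate gamma-delta T cells, and a row of zinc finger genes. The 5 genes BTN3A2, BTN2A2, BTN3A1, BTN3A3 and BTN2A1 had a peak in every line, at 9 to 14 tags in CCRF-CEM and 11 to 39 in the others. BTN1A1, the milk-fat butyrophilin, had none. None of the 9 listed zinc finger starts had a peak in every line, against 85 of all 169 listed starts. Of the 9, 5 had one in all lines but 1, against 22 of the 169. TALL-1 held 3 of the 9 and the other lines 5 or 6. The list is not complete, and ZNF391 was dropped from it. Regions of every line lay 7.8 kb from ZKSCAN4 (chr6:28234806-28235402) and 13.6 kb from ZKSCAN3 (chr6:28303233-28304069). Whether these lie at unlisted zinc finger starts was not looked up. PRSS16, a serine protease of the thymic cortex epithelium, had no peak in any line, and the iron regulator HFE a low one (9 tags) in HBP-ALL.

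In class I, the heavy chain gene HLA-E, which presents leader peptides to natural killer cells, had a peak in 5 lines, with 25 tags in KOPT-K1, 24 in HBP-ALL, 23 in TALL-1, 22 in MOLT-4 and 14 in DND-41 (chr6:30457018-30457666). HLA-C, a classical heavy chain, likewise had one in 5 lines, with 12 tags in HBP-ALL, 16 in DND-41, 22 in TALL-1, 29 in KOPT-K1 and 30 in MOLT-4 (chr6:31239407-31240156). CCRF-CEM had no peak at either start, and DND-41 was the lowest or next to lowest of the other lines at both. HLA-B had a peak in KOPT-K1 alone, with 19 tags over 457 bp, and it was that line's strongest line-only region of the window. HLA-F had one in HBP-ALL alone (15 tags) and HLA-G, a placental form, in no line. The class I light chain gene B2M on chromosome 15 had a peak in all 6 lines, from 22 tags in CCRF-CEM to 38 in TALL-1. NLRC5, the class I coactivator gene on chromosome 16, lacked a peak in CCRF-CEM and had 31 tags in TALL-1, 25 in MOLT-4, 21 in DND-41, 13 in KOPT-K1 and 8 in HBP-ALL.

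The HLA genes are polymorphic and resemble each other, and the peak lists give neither coverage nor mapping quality. A start without a peak is one where none passed the authors' threshold, not one shown to be closed. Of 29 listed starts of the class I part 15 (51.7%) had a peak in every line, close to the 50.3% of all listed starts. The tallest region there (chr6:30034358-30035290, 49 to 82 tags) lay 5.36 kb from the nearest start used, that of the RNA polymerase gene POLR1H. PPP1R11, listed next after POLR1H, was among the starts dropped, so whether this region lies at its start was not looked up. The next tallest was at MDC1, a DNA damage mediator (chr6:30684937-30685460, 32 to 72 tags). The widest single interval, 1495 bp in TALL-1, lay at GNL1 and PRR3.

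The class II part contrasted with this. No line had a peak at any of the 9 class II chain genes listed: HLA-DRA, HLA-DRB1, HLA-DRB5, HLA-DQA1, HLA-DQB1, HLA-DQA2, HLA-DQB2, HLA-DPA1 and HLA-DPB1. CIITA had no peak within 1 kb of its listed start in any line. A single start was listed for CIITA, so any other start of that gene was not looked up. The count at the chain genes was also 0 within 2.5 kb of the starts. A −log10 p of at least 10 and equal numbers of intervals per line can only remove peaks, so they could not change this count. No merged region at all lay between chr6:32163959 and chr6:32806087, a stretch of 642 kb from GPSM3 to TAP2. It contained 10 listed starts, among them those of the DR and DQ chains, of HLA-DOB, and of the endothelial Notch receptor NOTCH4. Of 40087 gaps between neighbouring regions 246, or 0.614%, were at least as long. A second gap of 177 kb held HLA-DOA, HLA-DPA1 and HLA-DPB1.

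Of the 4 class II loading genes, which edit the peptide held by class II chains, HLA-DOA and HLA-DOB had no peak. HLA-DMB had one in HBP-ALL alone (10 tags, chr6:32908895-32909423) and HLA-DMA one in KOPT-K1 alone (8 tags, chr6:32920896-32921141). Neither passed a −log10 p of 10, and neither remained when each line gave the same number of intervals. As a marker of stage or lineage, class II therefore set no line apart: CCRF-CEM, DND-41, MOLT-4 and TALL-1 had a peak at none of the 13 chain and loading genes, and HBP-ALL and KOPT-K1 at 1 each.

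The genes that serve class I presentation from within the same block were open. The transporter genes TAP1 and TAP2 and the immunoproteasome genes PSMB8 and PSMB9 had a peak in all 6 lines. At the start shared by TAP1 and PSMB9 (chr6:32821136-32822373) the pileup was 40 tags in DND-41, 34 in TALL-1, 31 in MOLT-4, 30 in both KOPT-K1 and HBP-ALL, and 23 in CCRF-CEM. Relative values there lay between −0.22 and 0.27, with DND-41 highest. PSMB8 (chr6:32811614-32813040) stood at 22 to 35 tags and TAP2 (chr6:32806088-32806791) at 20 to 37. TAPBP, which bridges class I chains to the transporter, had a peak in HBP-ALL alone (19 tags over 214 bp), and this one too did not remain at a −log10 p of 10. The narrowest HBP-ALL interval of the window had 195 bp.

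**Figure D3:**
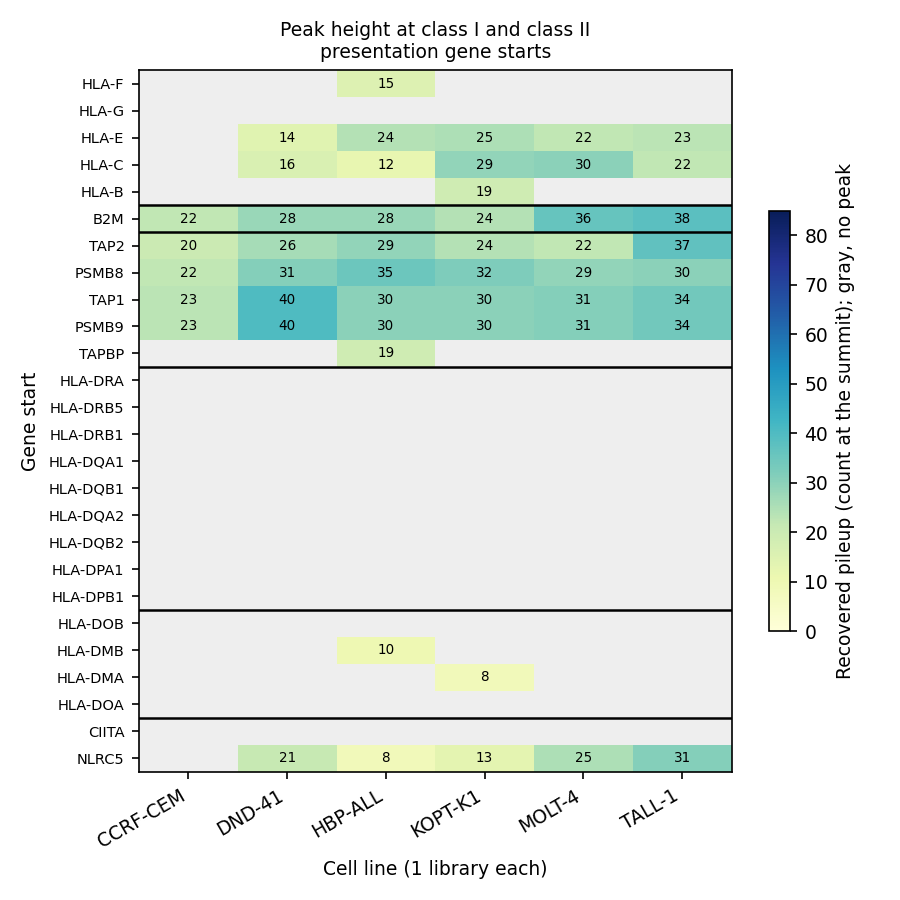
Recovered pileup (colour and number, tags at the summit) at starts of 5 class I heavy chain genes, B2M, class I processing genes, class II chain genes, class II loading genes and the regulators CIITA and NLRC5 (rows, lines between groups) in 6 lines (columns). The 9 class II chain rows are gray in every line, while TAP1, TAP2, PSMB8, PSMB9 and B2M have a value in all 6.

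The remaining class II regions at listed starts were those of broadly used genes, and each had a peak in all 6 lines. BRD2, a reader of acetylated histones (chr6:32936112-32936905), had 27 tags in CCRF-CEM and 42 to 67 in the others. RXRB, a nuclear receptor (chr6:33167824-33168703), had 18 to 45, RING1, a Polycomb ubiquitin ligase (chr6:33176108-33176610), 12 to 44, and the pair VPS52 and RPS18 (chr6:33239299-33240104) 17 to 35. WDR46 (chr6:33256752-33257464) had 14 to 32 tags, the histone H3.3 chaperone DAXX (chr6:33290638-33291316) 18 to 69 and the kinesin KIFC1 (chr6:33359089-33359910) 37 to 77. PHF1, a Polycomb-associated protein (chr6:33377861-33379107), had 34 to 83 and held the widest class II interval, 1209 bp in MOLT-4. CUTA (chr6:33385685-33386443) had 26 to 70 tags. CCRF-CEM had the lowest relative pileup in 7 of these 9 regions. At WDR46 DND-41 was lowest (−0.35, CCRF-CEM −0.32), and at PHF1 KOPT-K1 was (−0.59, CCRF-CEM −0.40). The tallest class II region lay 3.01 kb from the listed BRD2 start (chr6:32939414-32940433), with 30 to 83 tags.

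In class III the leading regions were at PRRC2A (chr6:31587767-31588904, 32 to 80 tags), a gene of RNA handling, and at RNF5, a ubiquitin ligase of the endoplasmic reticulum (chr6:32145255-32146335, 48 to 77 tags). The widest interval, 1260 bp in HBP-ALL, lay at CSNK2B, a subunit of casein kinase. Of 36 listed starts 15 had a peak in every line, 12 in some and 9 in none; the share in every line was 41.7% against 50.3% of all listed starts. TNF had a peak in DND-41 alone (17 tags, chr6:31543233-31543718, −log10 p 8.02), and its neighbour, the lymphotoxin gene LTB, in no line. The 3 complement genes C4A, C4B and CFB had none. LST1, of leukocytes, had a peak in 4 lines and the histone methyltransferase gene EHMT2 in the same 4, which were TALL-1, MOLT-4, KOPT-K1 and HBP-ALL. The heat shock gene HSPA1B had a peak in every line but HBP-ALL (chr6:31794831-31795821), with 66 tags in both TALL-1 and MOLT-4, 53 in DND-41, 39 in KOPT-K1 and 31 in CCRF-CEM. The nearest HBP-ALL peak was 6475 bp away. HSPA1A is nearly identical to HSPA1B, and C4A to C4B, so reads of these pairs may not be placed with certainty.

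HBP-ALL had a peak at 75.8% of the 264 regions (70.1 to 80.8%), TALL-1 at 67.8%, KOPT-K1 and MOLT-4 each at 65.9%, DND-41 at 61.0% and CCRF-CEM at 58.0% (51.7 to 64.0%). Over all merged regions the shares were 55.4% in CCRF-CEM, 54.5% in HBP-ALL, 47.3% in MOLT-4, 44.8% in KOPT-K1, 44.3% in DND-41 and 40.7% in TALL-1. CCRF-CEM therefore held the most regions genome-wide and the fewest here. TALL-1, with the fewest genome-wide, was second here. On chromosome 19 CCRF-CEM was lowest too, at 46.5%, and HBP-ALL highest, at 77.8%.

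Regions held by 1 line only numbered 19 in HBP-ALL, 14 in CCRF-CEM, 6 in TALL-1, 5 in MOLT-4, 4 in KOPT-K1 and 3 in DND-41. In HBP-ALL they were 9.5% of the line's window regions against 21.3% of its regions genome-wide, and in CCRF-CEM 9.15% against 28.9%. The shares were 3.35% against 9.12% in TALL-1, 2.87% against 9.62% in MOLT-4, 2.30% against 8.34% in KOPT-K1 and 1.86% against 8.04% in DND-41. Each line thus had a lower share here than genome-wide, and CCRF-CEM and HBP-ALL stood above the others in both. None of the 14 CCRF-CEM regions lay at a listed start, and 12 of them were in the histone block. Of the 19 HBP-ALL regions 6 lay at one, HFE, H4C6, ZSCAN16, HLA-F, HLA-DMB and TAPBP. They were low, with median pileups of 9 to 17 tags by line against 20 to 37.5 at regions of every line.

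By −log10 p, the strongest line-only region was at ZSCAN16, a zinc finger gene, in HBP-ALL (chr6:28092282-28092575, 23 tags, −log10 p 19.3). CCRF-CEM's strongest lay between zinc finger and histone genes, 120 kb from the nearest listed start (chr6:27560558-27560925, 17 tags, −log10 p 17.2). TALL-1's lay at the tubulin gene TUBB (chr6:30687878-30688139), 262 bp wide with 50 tags. Its deposited fold was 3.98, below the median of 5.68 over TALL-1's intervals in the window. A region of 332 bp on the other side of the TUBB start was held by DND-41, HBP-ALL and MOLT-4. It had 30 to 44 tags, at folds of 3.48 to 4.06. MOLT-4's lay 45.9 kb from TRIM26 (chr6:30227206-30227692, 16 tags). The narrow tall form recurred at chr6:33172286-33172588, 303 bp wide, which MOLT-4 and TALL-1 alone held with 43 and 42 tags (chosen after its values were seen).

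**Figure D4:**
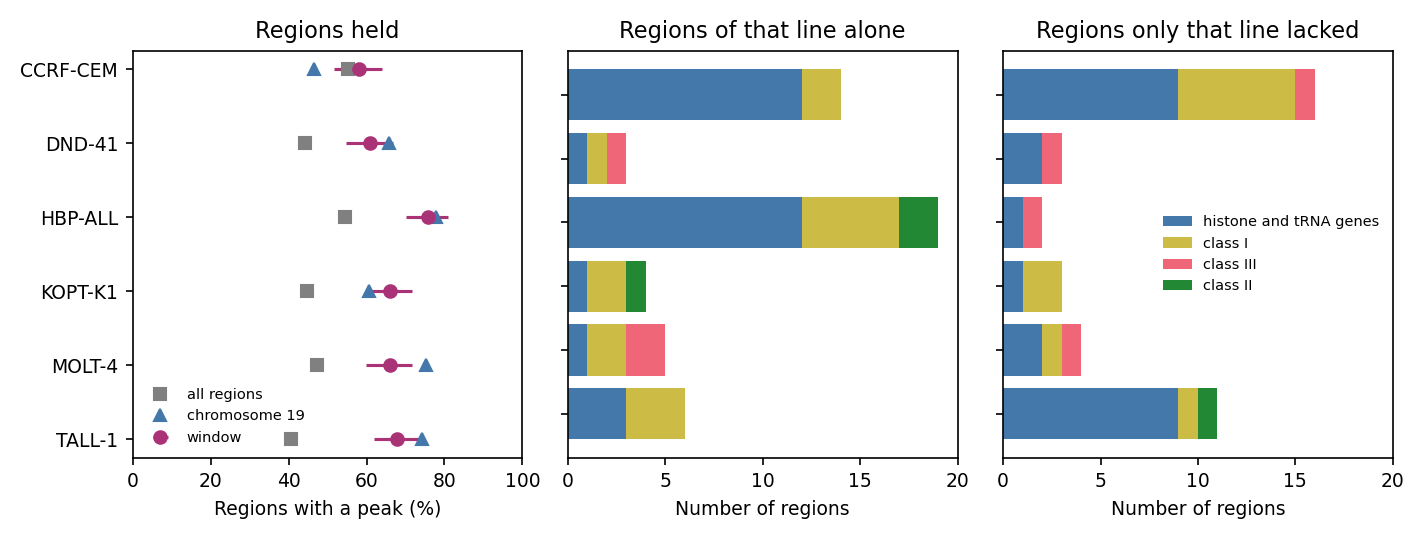
Left, share of regions with a peak by line (percent) in the window (points, bars for the exact 95% interval), on chromosome 19 and over all regions; middle and right, counts of regions held by that line alone or lacked by that line alone, coloured by block. CCRF-CEM and HBP-ALL have 14 and 19 line-only regions against 3 to 6 in the others, and CCRF-CEM and TALL-1 lack 16 and 11 alone against 2 to 4.

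Regions present in all lines but 1 numbered 39, and 16 of them were lacking in CCRF-CEM and 11 in TALL-1. This was 6.06% and 4.17% of the 264 regions, against 2.42% and 1.57% of all regions. On chromosome 19 CCRF-CEM alone lacked 128 of 1204. Of the 16 window regions that CCRF-CEM alone lacked, 9 lay at listed starts. These were at H4C2, H3C4, H3C7 with H2BC9, H2BC10, ZNF184, HLA-E, IER3, VARS2 and HLA-C. The most marked was at H2BC10 (chr6:26272671-26273545), where TALL-1 had 34 tags and the others 45 to 47, 898 bp from the nearest CCRF-CEM peak. Of the 11 that TALL-1 alone lacked, 9 were in the histone block, including one at ZNF322 (chr6:26659637-26660517) with 33 to 55 tags in the other lines, 51573 bp from the nearest TALL-1 peak. DND-41 alone lacked H4C4 (16 to 27 tags in the others) and KOPT-K1 a region at H3C11 and H4C13 (17 to 35), 689 bp from its nearest peak. MOLT-4 alone lacked a region 29.6 kb from ZNF184 (11 to 21 tags).

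Regions held by exactly 2 lines numbered 32, and MOLT-4 with TALL-1 accounted for 8 of them, or 25%, against 4.36% of such regions genome-wide. On chromosome 19 the same pair held 14.2% of 113 such regions and on the rest of chromosome 6 3.03% of 330. The 8 were spread over the blocks, with 3 in class III, 2 each in the histone block and class I, and 1 in class II. NFKBIL1, an NF-kappa-B inhibitor-like gene, was the listed start among them, with 24 tags in each line. HBP-ALL with TALL-1 held 5.

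Before merging, the median interval width was 535 bp in KOPT-K1, 512.5 bp in DND-41, 501 bp in MOLT-4, 489 bp in HBP-ALL, 447 bp in TALL-1 and 435 bp in CCRF-CEM. Genome-wide it was 531 bp in DND-41, 519 bp in TALL-1, 509 bp in MOLT-4, 507 bp in KOPT-K1, 491 bp in HBP-ALL and 436 bp in CCRF-CEM. TALL-1 was the line whose genome-wide median lay outside the 95% interval of its window median (415 to 515 bp). At regions held by every line the medians were 479 bp in CCRF-CEM and 563 to 607 bp in the others. Each was below its genome-wide value, which was 596.5 bp in CCRF-CEM and 663 to 705 bp in the others. On chromosome 19 such medians were also below the genome-wide values, at 452.5 bp in CCRF-CEM and 538 to 647 bp in the others. The narrowest block median was CCRF-CEM's in class III, 350.5 bp, where the others had 459.5 to 596 bp. Intervals with several summits made up 10.9% in CCRF-CEM and 15.8 to 24.6% in the others. Genome-wide they were 9.18% in CCRF-CEM and 15.0 to 19.9% in the others.

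At the 97 regions held by every line, the median relative pileup was 0.19 in MOLT-4 (95% interval of the median 0.14 to 0.24), 0.18 in TALL-1, 0.05 in HBP-ALL, 0.02 in KOPT-K1, −0.09 in DND-41 and −0.38 in CCRF-CEM (−0.50 to −0.30). It was above 0 at 12 of the 97 in CCRF-CEM, at 74 in MOLT-4 and at 69 in TALL-1. The spread was widest in class III, from −0.53 in CCRF-CEM to 0.39 in TALL-1, and narrowest in the histone block, from −0.32 in CCRF-CEM to 0.17 in KOPT-K1. KOPT-K1 was above 0 in the histone block and class I and below it in class III and class II. On the rest of chromosome 6 CCRF-CEM stood at 0.23 and MOLT-4 at −0.20, and on chromosome 19 at −0.68 and 0.46. CCRF-CEM as the lowest line and MOLT-4 as the highest were thus shared with chromosome 19, and both went the other way on the rest of chromosome 6. With the authors' fold in place of the pileup CCRF-CEM was again lowest (−0.10), but TALL-1 (0.077) and not MOLT-4 (0.021) was highest.

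**Figure D5:**
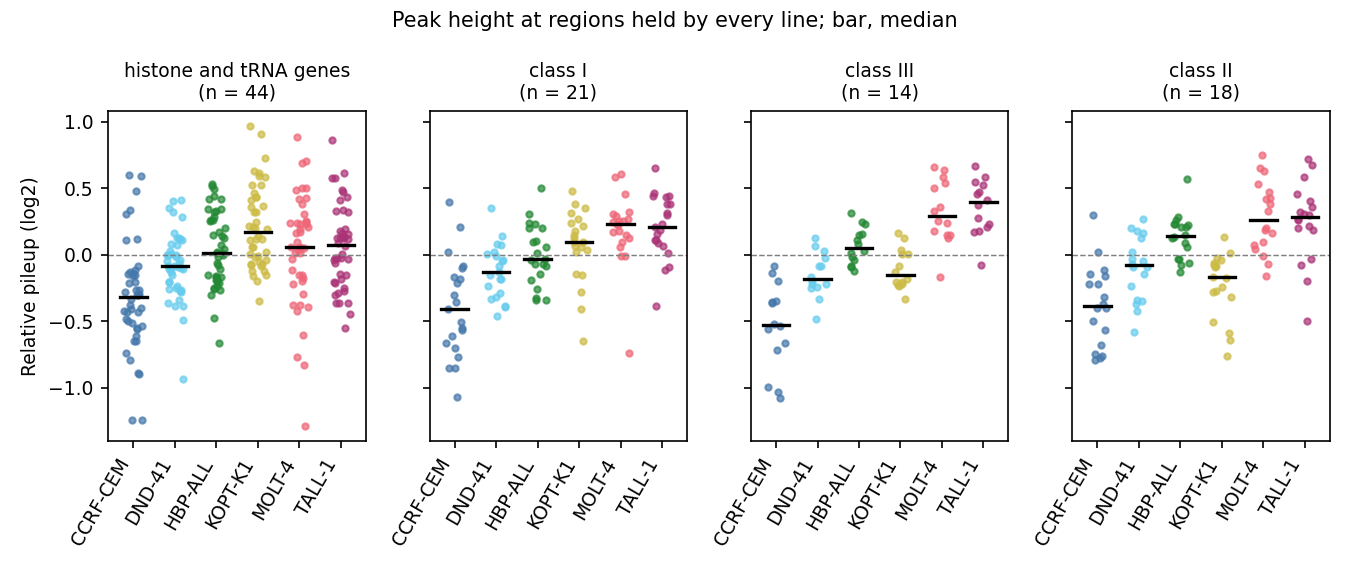
Relative pileup (log2, less the mean over lines and less each line's median at all shared regions) at each region held by every line, by block and line; bars are medians. CCRF-CEM has the lowest median in each of the 4 blocks, from −0.53 in class III to −0.32 in the histone block.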

How the data were processed

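ATAC-seq peak lists of 6 T-ALL lines, 1 library each, were analysed as the authors deposited them. Per the submitters' processing notes, MACS2 2.1.1.2016030, Bowtie2, SAMtools and Picard were used, with build hg19. Their settings, and any filter or shift of reads, are not given in what was used here. Depth per library is unknown. Peaks were called per library, 1 deposited list per line. The lists, read as narrowPeak, give for each summit the authors' score, the deposited fold enrichment (a ratio), the deposited −log10 p and −log10 q, and the summit offset. The lowest deposited −log10 p was just above 5.

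Lines sharing an interval were joined, and intervals overlapping by at least 1 bp were merged on chromosomes 1 to 22 and X. Pileups were recovered as the whole number of tags that returns the authors' fold, (t + 1) / (c + 1), and −log10 p within 0.001; this worked for 99.8 to 99.9% of lines per list and for every member. The recovery and the merging were tested on simulated data. Gene starts (178 listed from general knowledge of hg19, marker genes likewise) were kept where spacing to neighbours matched RefSeq within 1.5 kb (172; the markers were not checked). Shares carry exact (Clopper-Pearson) 95% intervals and medians order-statistic ones; both cover counting error only. Class II regions at listed starts, and in each block or line the tallest shared, strongest line-only, most marked missing and widest items, were named by rule; other genes were named from the role lists or after their values were seen. Members, lists and rule were chosen with earlier results of these data known. The groups of exactly 3 lines, the marker check and the promoter motifs were added after seeing the data. The software was pandas 2.3.3, scipy 1.17.1, matplotlib 3.10.9 and numpy 2.4.6 under Python 3.11.15. Some genes that were looked up are not reported here.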

Additional observations from a re-analysis of the deposited data

How the results depend on the processing

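Where overlapping intervals were replaced by windows of 100 bp on each side of the summits, the share in every line was 28.1% in the window and 22.2% in the histone block. The share in 1 line was then 31.9% in the window, 33.9% in the histone block and 42.0% in class I. With equal numbers of the strongest intervals per line, the window's share in every line was 30.5%. At a −log10 p of at least 10 the class II share in 1 line was 0%. Leaving out 1 line at a time gave 38.3 to 45.2% in every line for the window (32.4 to 41.4% for the histone block) and 16.4 to 24.8% in 1 line. Without TALL-1 the share in 1 line rose to 25% in class III and 22.2% in class II, from 9.38% and 11.1% with all lines. In class III it fell at a −log10 p of at least 10 and at least 100 kb inside the edges (4.17% in both). With equal numbers it also fell there, to 3.45%. In each of 10 settings, the share in every line stayed above that of all regions under the same setting for the window and 3 blocks. Class I did so in 9 of 10, the exception being a −log10 p of at least 10 (24.5 against 25.3%).

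Median widths at a −log10 p of at least 10 were 589.5 bp in DND-41 and MOLT-4, 589 bp in HBP-ALL, 592 bp in KOPT-K1 and 532.5 bp in TALL-1. At regions of every line they were 563 bp in DND-41, 607 bp in HBP-ALL, 583.5 bp in KOPT-K1, 599 bp in MOLT-4 and 588 bp in TALL-1. With equal numbers HBP-ALL had 556.5 bp.

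With the authors' fold, the relative medians were −0.10 in CCRF-CEM, 0.021 in MOLT-4 and 0.077 in TALL-1. Centred on chromosome 6 outside the window they were 0.39 in MOLT-4, 0.28 in TALL-1, 0.16 in HBP-ALL, −0.068 in KOPT-K1, −0.16 in DND-41 and −0.61 in CCRF-CEM. The number of lines with a peak at a start moved beyond 1.5 times for 24 of 172 genes at a −log10 p of at least 10, for 12 with equal numbers and for 3 within 2.5 kb. The cause was not tested. No paired analysis was possible because each line is 1 library and the numbers pair nothing. A start without a peak can hold reads under the threshold. Near-identical copies and the gene starts written from general knowledge limit single calls.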

Other observations

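Of 39 listed housekeeping genes 33 had a peak in every line, against 85 of all 169 listed starts. The 4 TRIM ubiquitin ligase genes TRIM38, TRIM27, TRIM26 and TRIM39 all had one, as did HMGN4, a nucleosome-binding protein. IER3, an early response gene, had 42 tags in TALL-1, 33 in MOLT-4, 26 in KOPT-K1, 18 in both DND-41 and HBP-ALL, and no peak in CCRF-CEM. Starts with no peak in any line included POU5F1, the pluripotency factor, MOG, a myelin protein, and COL11A2, a cartilage collagen. No region lay between chr6:28985051 and chr6:29458024, 473 kb in the class I part, a stretch known for olfactory receptor genes, and 1.41% of all gaps were as long.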
